A study of Homo sapiens with 12 samples.

Results

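The 38 genes described here make cholesterol and fatty acids or move them, and many of them are textbook targets of the sterol regulatory element binding proteins (SREBPs). They were chosen by symbol, through the Ensembl gene IDs of the files, and are 38 of the 60617 genes in the deposited tables. All 38 passed the filter on low counts and are among the 21581 genes tested. They fall into 18 enzymes of sterol synthesis, 5 genes of the SREBP machinery, 5 genes of cholesterol uptake, transport and efflux, and 10 fatty acid genes.

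The samples were cultures of A549, a human lung adenocarcinoma cell line grown with fetal bovine serum, and RNA was taken 24 hours after siRNA transfection. One group of 4 libraries received the siRNA combination siYAP/TAZ#1, another 4 received siYAP/TAZ#2, and 4 received the control siRNA, siCo. Each combination targets YAP together with TAZ, a pair of transcriptional coactivators that Hippo kinases hold back. No source used here gives the siRNA sequences. The question of the design is what loss of both coactivators does to gene expression, and whether both combinations do the same. All groups are 1 cell line in 1 serum-containing medium, and none of these libraries had YAP or TAZ targeted alone.

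As background, cells sense their own sterol level through SREBPs, which are made as precursors in the endoplasmic reticulum membrane. When sterol is low, the escort protein SCAP carries SREBP to the Golgi, where proteases release the part that enters the nucleus and switches on genes of sterol and fatty acid synthesis. When sterol is high, INSIG proteins hold SCAP back. A parallel arm, the oxysterol-sensing liver X receptors (LXRs), drives export genes such as ABCA1 and ABCG1, and also MYLIP and SREBF1. In alveolar epithelium this pathway supplies lipid for surfactant.

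The promoter of SREBF2, which encodes the SREBP most tied to sterol synthesis, is shown because SREBF2 was the 1 member called higher with one combination and lower with the other, and because its promoter alone among the 33 members in the promoter table held the sterol regulatory element core TCACNCCAC. The sequence is RefSeq's for build GRCh38.p14, plus strand, chr22:41832855-41833154, from 250 bases before to 50 after the gene's annotated start, with the match in capitals.
SREBF2 promoter: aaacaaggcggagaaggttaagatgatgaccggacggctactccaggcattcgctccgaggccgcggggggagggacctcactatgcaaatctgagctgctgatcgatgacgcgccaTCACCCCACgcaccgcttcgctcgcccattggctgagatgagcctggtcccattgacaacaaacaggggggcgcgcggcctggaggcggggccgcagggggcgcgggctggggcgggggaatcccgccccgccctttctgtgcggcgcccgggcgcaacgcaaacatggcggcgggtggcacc
The match TCACCCCAC begins at position -133 from the start, and the NF-Y box CCAAT lies on the minus strand at -106. Searched on both strands, TCACNCCAC was in the windows of 3.03% of the 33 members and of 1.39% of all 27305 genes in the table. CCAAT was in those of 24 members (72.7%) and of 39.7% of all genes, and GGAATG, the core bound by the TEAD partners of YAP and TAZ, in those of 5 members (15.2%) and of 16.7% of all genes. All members were among the genes tested. Over the 13221 tested genes in the promoter table, the shares of TCACNCCAC, CCAAT and GGAATG were 1.42%, 42.0% and 15.1%. A match describes these letters only.

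Each library held 29617111 to 38264296 estimated counts, and 10 counts corresponded to 0.25 to 0.375 CPM (the counts-per-million scale, after TMM scaling of the library totals). The knockdown was present in every treated library. YAP1 was at 17.9, 19.2, 20.5 and 17.3 CPM in siYAP/TAZ#1, at 19.1, 17.0, 16.9 and 16.5 CPM in siYAP/TAZ#2, and at 125, 116, 124 and 121 CPM in siCo. WWTR1, the gene of TAZ, averaged 32.9 ± 1.14, 32.4 ± 2.38 and 241 ± 9.72 CPM in the same order of groups (SD, n = 4 each). That left 15.5% and 13.7% of the siCo level of YAP1 and WWTR1 with siYAP/TAZ#1, and 14.3% and 13.5% with siYAP/TAZ#2. The 6 epithelial markers summed to 2801 to 4107 TPM (the transcripts-per-million scale, which corrects for length) in siYAP/TAZ#1, 2693 to 3901 TPM in siYAP/TAZ#2 and 2526 to 3650 TPM in siCo. Within them KRT7 averaged 1355, 1223 and 1673 TPM in siYAP/TAZ#1, siYAP/TAZ#2 and siCo, KRT19 146, 185 and 77.2 TPM, CDH1 17.3, 13.1 and 6.002 TPM, and EPCAM 1.86, 2.13 and 1.01 TPM. The 8 alveolar markers summed to 16.9 to 32.8, 17.2 to 29.7 and 9.65 to 18.5 TPM in the same order of groups, nearly all from ABCA3 at 21.8, 22.7 and 13.3 TPM, while SFTPA1, SFTPA2, NKX2-1 and AQP5 were at or near 0 in all groups. Summed TPM of the 4 immune markers was 15.6 to 27.6 in siYAP/TAZ#1, 16.9 to 29.8 in siYAP/TAZ#2 and 12.7 to 16.5 in siCo, with CD3E at or near 0 and most of the sum from CD68. The 3 endothelial markers summed to at most 0.569 TPM in any library. The 4 fibroblast markers summed to 31.6 to 44.4, 23.4 to 37.7 and 16.4 to 26.5 TPM in siYAP/TAZ#1, siYAP/TAZ#2 and siCo, nearly all from COL1A1. Their part in the results was not tested.

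One library stood apart. The siYAP/TAZ#2 library of replicate 1 was compared with the 3 others of its group by a chi-square test over genes. The statistic divided by its degrees of freedom was 48.4 to 76.7 there, against 3.66 to 41.5 in the other 15 pairs of libraries within groups. Among the 38 genes it was the highest or lowest of its group for 34. That count was 31 for replicate 3 of siCo, 28 for replicate 3 of siYAP/TAZ#1 and 5 to 25 for the other 9 libraries. Each member whose call changed without it is named below. Values without it are given for some genes only, and values not repeated shifted too. The change of IDI1 with siYAP/TAZ#2, for example, went from -0.52 to -0.41.

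With siYAP/TAZ#1, 18 of the 38 genes were higher than in siCo and 7 were lower, at an adjusted p under 0.05 in edgeR's quasi-likelihood test. Over all 21581 genes, 16.4% were higher and 18.5% lower in that comparison. The median log2 change of the 38 was 0.21, beside 0.02 over all genes. The sterol reductase TM7SF2 and the acetate enzyme ACSS2 rose most, while the squalene epoxidase SQLE fell by 48.0% and the SREBP retention gene INSIG1 fell by 31.8%. Of the 38, 19 were higher in every siYAP/TAZ#1 library than in any siCo library and 7 were lower in every one, where 18.1% and 20.7% of all genes were apart in this way. Together the 38 genes took 1.23% to 1.33% of all counts in siYAP/TAZ#1 libraries, 1.08% to 1.23% in siYAP/TAZ#2 libraries and 0.982% to 1.07% in siCo libraries. These are shares of library totals without TMM scaling, unlike the changes above. TMM factors were lowest in siCo, so TMM scaling raises siCo levels relative to these shares. The sum also weighs each gene by its counts, and FASN and SCD weigh most. It therefore does not show that the 38 genes rose as a set.

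With siYAP/TAZ#2, 11 genes were higher and 10 lower, where 19.0% and 19.2% of all genes were called in these directions. The median of the 38 was -0.03, beside 0.02 over all genes. TM7SF2, ACSS2 and the exporter ABCG1 were higher, and ELOVL1, SREBF2, INSIG1 and IDI1 were lower. Of the 38, 8 were higher in every siYAP/TAZ#2 library than in any siCo library and 11 were lower in every one, where 16.9% and 17.7% of all genes were apart in this way. Without replicate 1 of siYAP/TAZ#2 the counts of calls were 11 higher and 11 lower, beside 4614 and 4893 of 22166 genes.

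Side by side, 9 genes were called higher with both combinations, namely LSS, TM7SF2, SREBF1, MYLIP, ACSS2, SCD, ELOVL6, FADS1 and FADS2. Another 5 were called lower with both, SQLE, INSIG1, NPC1, ACLY and ELOVL1. Over all genes, 12.5% were higher with both and 13.3% lower with both. SREBF2 was called higher with siYAP/TAZ#1 and lower with siYAP/TAZ#2, a pattern of 0.375% of all genes. With siYAP/TAZ#1 alone, 8 members were called higher and 2 lower (3.51% and 4.93% of all genes), and with siYAP/TAZ#2 alone 2 higher and 4 lower (6.20% and 5.54%). The remaining 7 were called with neither, like 53.4% of all genes. Both comparisons use the same 4 siCo libraries, so their calls are not independent. Of the 24 members with CCAAT, 12 were higher and 4 lower with siYAP/TAZ#1, and 7 higher and 8 lower with siYAP/TAZ#2, with medians of 0.21 and -0.06. Of the 9 in the table without it, 4 were higher and 2 lower, and 3 higher and 1 lower, with medians of 0.21 and 0.14. The shares over all genes were 16.4% higher and 18.5% lower with siYAP/TAZ#1, and 19.0% and 19.2% with siYAP/TAZ#2.

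**Figure D1:**
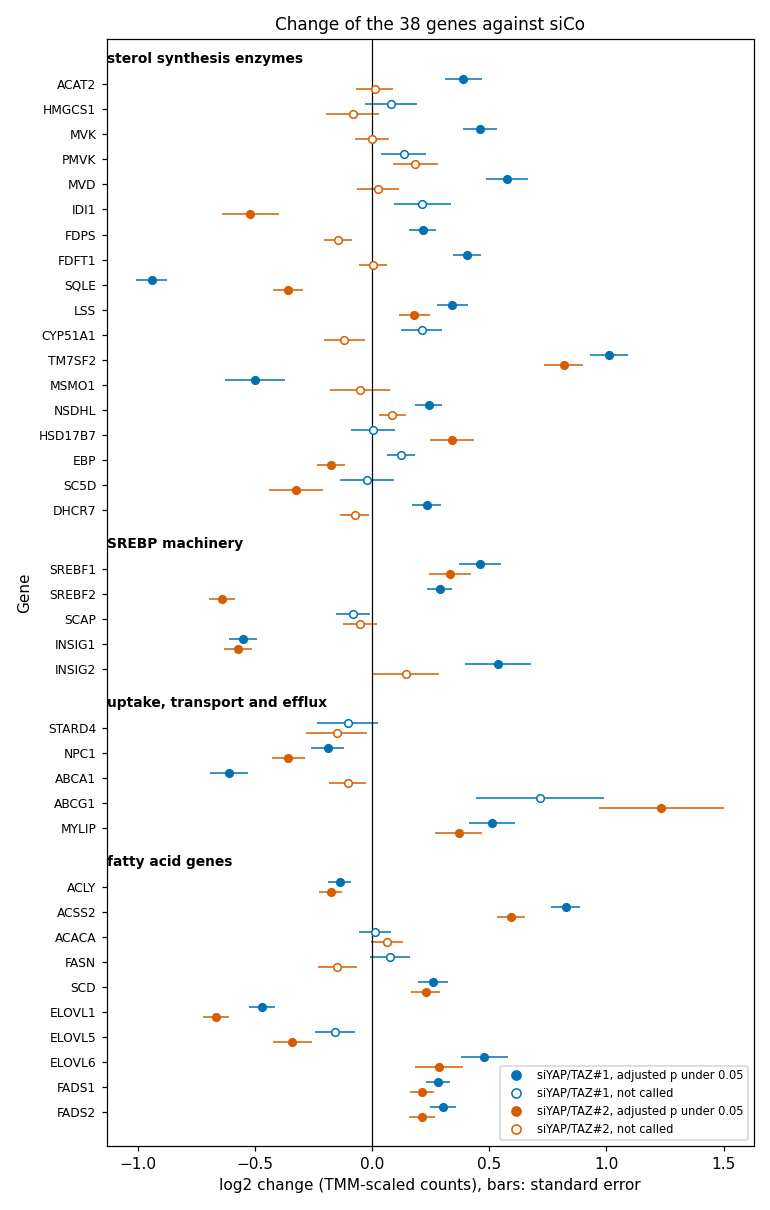
Log2 change of each of the 38 genes against siCo (horizontal axis, TMM-scaled counts, bars standard errors, 4 libraries a group), with siYAP/TAZ#1 in blue above siYAP/TAZ#2 in orange; filled points have an adjusted p under 0.05. Most filled blue points of the sterol enzymes lie right of 0 while the orange ones lie on both sides, and SREBF2 has filled points on both sides, at 0.29 and -0.64.

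The counts depended on how libraries were scaled. Scaled by library size alone, 24 genes were higher and 4 lower with siYAP/TAZ#1, and 15 higher and 3 lower with siYAP/TAZ#2. Over the 21581 genes of that fit, 5876 were higher and 1905 lower with siYAP/TAZ#1, and 6538 and 2037 with siYAP/TAZ#2. That scaling moved the median of all genes to 0.20 and 0.21, and the median of the 38 to 0.39 and 0.16. On the deposited TPM values as they stand, limma called 7 of 37 members higher and 0 lower with siYAP/TAZ#1, and 5 higher and 0 lower with siYAP/TAZ#2. Over the 18464 genes of that fit, it called 1310 higher and 138 lower, and 2731 and 172. At an unadjusted p under 0.05 limma gave 18 members higher and 1 lower, and 12 higher and 0 lower. DESeq2 called 18 members higher and 7 lower, and 10 higher and 11 lower. Over all genes with an adjusted p, DESeq2 called 3466 higher and 4105 lower of 23102, and 3958 and 4301 of 23939. In those TPM values the median of all genes was 0.25 higher than in siCo with siYAP/TAZ#1 and 0.31 higher with siYAP/TAZ#2. All calls of lower members against siCo were lost in that fit, and the reason was not tested. TM7SF2, ACSS2 and SREBF1 kept their calls with both combinations, as did FDFT1, LSS, MVD and MVK with siYAP/TAZ#1, under every alternative. With siYAP/TAZ#2, HSD17B7 also did so, as did ABCG1 in the fits that held it. A single feature took 5.99% to 16.5% of the TPM in siYAP/TAZ#1 libraries, 6.17% to 16.3% in siYAP/TAZ#2 libraries and 11.4% to 19.7% in siCo libraries.

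**Figure D2:**
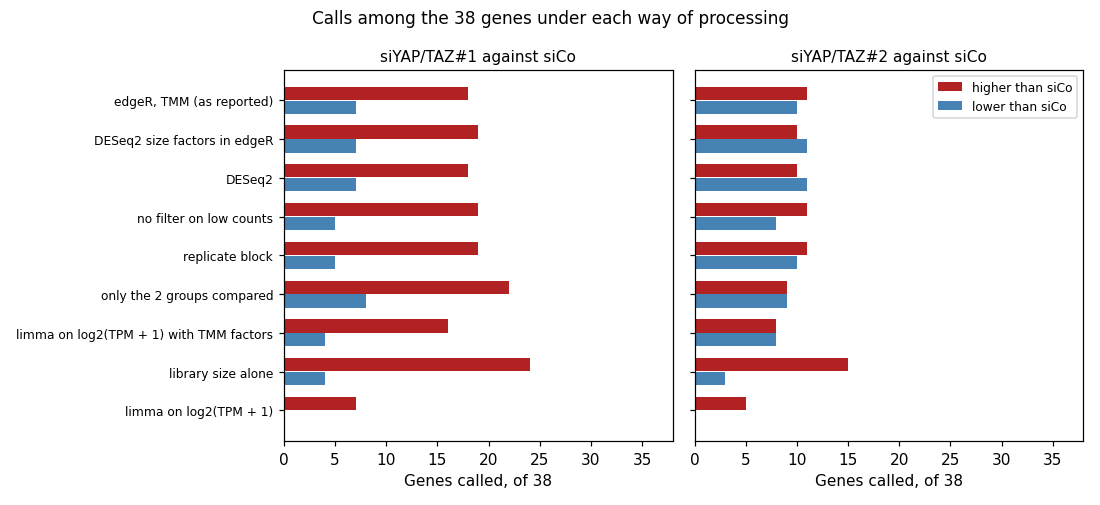
Number of the 38 genes called higher (red) or lower (blue) than siCo under each way of processing, for siYAP/TAZ#1 on the left and siYAP/TAZ#2 on the right; the TPM fits hold 37 of the genes, since ABCG1 was under the minimum mean of 0.5 TPM. Lower calls number 4 to 8 for siYAP/TAZ#1 in every way of processing except TPM without further scaling, where there are 0.

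Compared directly, siYAP/TAZ#1 was higher than siYAP/TAZ#2 for 12 of the 38 genes and lower for 4, where 6.92% and 8.20% of all genes were called in these directions. This contrast does not compare with siCo and asks directly whether the combinations differ. The siCo libraries still entered the filter, the scaling and the estimate of spread. With only the 2 groups compared in the fit, 11 members were higher and 3 lower, beside 1258 and 1413 of 20806 genes. The median difference of the 38 was 0.17, beside -0.01 over all genes. Of the 12, 9 were sterol synthesis enzymes, and the others were SREBF2, ACSS2 and ELOVL1. The 4 lower genes were SQLE, MSMO1, HSD17B7 and ABCA1. For 16 of the 38, every siYAP/TAZ#1 library was above every siYAP/TAZ#2 library, and for 3 every one was below, where 8.93% and 9.31% of all genes were apart in this way. Without replicate 1 of siYAP/TAZ#2 there were 15 higher and 5 lower, with LSS, SREBF1 and FASN added to the higher ones and ACACA to the lower ones. Leaving out replicate 1 also raised the number of calls over all genes to 2287 higher and 2840 lower, beside 1493 and 1769 with every library. On TPM without further scaling, limma called 0 of 37 members in either direction, beside 42 higher and 63 lower of 18464 genes. At an unadjusted p under 0.05 it gave 2 members higher and 1 lower. DESeq2 called 16 members higher and 4 lower, beside 1780 and 1986 of 14727 genes.

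**Figure D3:**
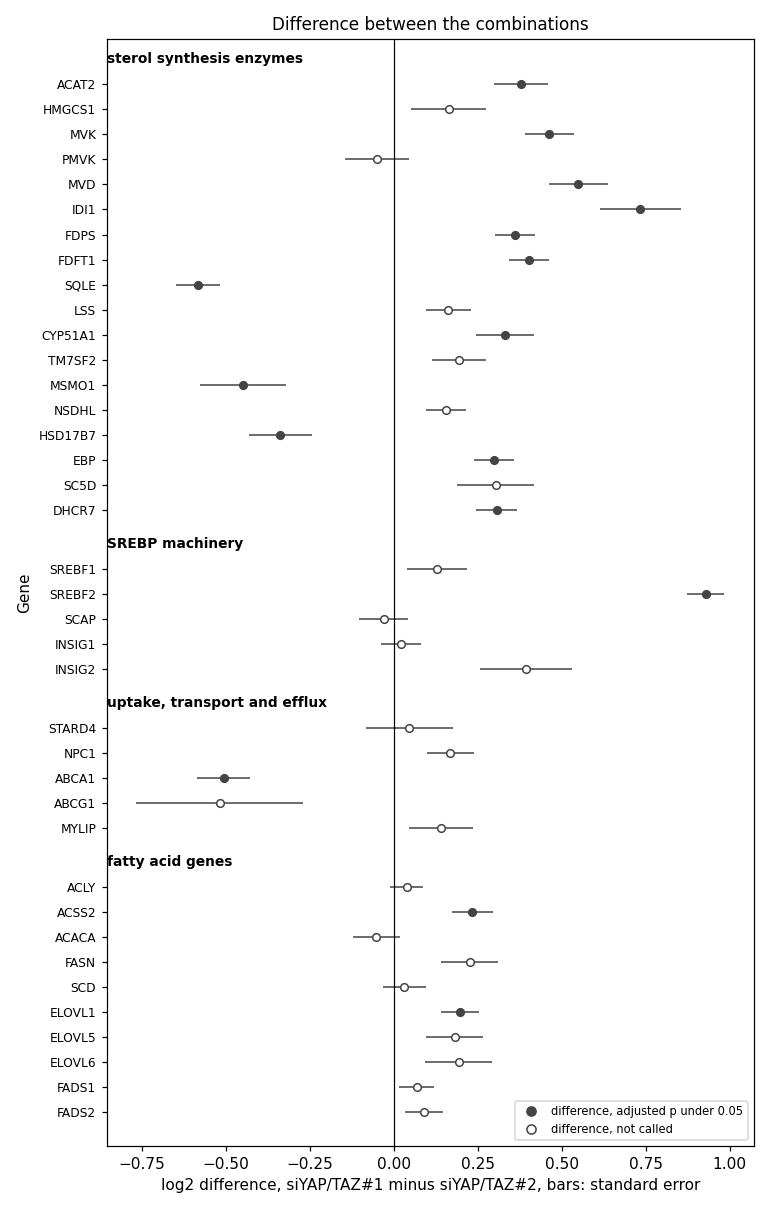
Log2 difference of each of the 38 genes, siYAP/TAZ#1 minus siYAP/TAZ#2 (horizontal axis, bars standard errors, 4 libraries a group); filled points have an adjusted p under 0.05. Filled points right of 0 gather among the sterol synthesis enzymes, and SREBF2 lies farthest right, at 0.93.

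The mevalonate arm turns acetyl-CoA into the isoprenoid building blocks of sterols. Here siYAP/TAZ#1 and siYAP/TAZ#2 parted in the TMM-scaled counts. ACAT2, MVK, MVD, FDPS and FDFT1 were higher than siCo with siYAP/TAZ#1 and none of the 5 was called with siYAP/TAZ#2. On TPM without further scaling, none of the 5 was called between the combinations. ACAT2 and FDPS also lost their calls with siYAP/TAZ#1 there, at 0.72 and 0.56. MVD, which makes isopentenyl diphosphate, was at 96.4, 109, 93.1 and 106 CPM in siYAP/TAZ#1, at 84.3, 60.8, 63.7 and 68.1 CPM in siYAP/TAZ#2, and at 68.3, 72.4, 66.4 and 64.9 CPM in siCo. All 4 siYAP/TAZ#1 libraries lay above the other 8, and those of siYAP/TAZ#2 overlapped siCo on both sides. Its log2 change was 0.58 ± 0.089 with siYAP/TAZ#1 (adjusted p = 9.36e-05) and 0.03 ± 0.089 with siYAP/TAZ#2 (adjusted p = 0.858), and the difference was 0.55 ± 0.089 (adjusted p = 3.37e-04).

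MVK, the mevalonate kinase, had the same order. It ranged from 70.1 to 79.0 CPM in siYAP/TAZ#1, from 49.1 to 58.1 CPM in siYAP/TAZ#2 and from 48.9 to 60.6 CPM in siCo, a log2 difference between combinations of 0.46 ± 0.073 (adjusted p = 2.65e-04). FDFT1, squalene synthase, which commits isoprenoids to sterols, averaged 264 ± 13.4 CPM in siYAP/TAZ#1, 199.8 ± 10.5 CPM in siYAP/TAZ#2 and 199.7 ± 10.0 CPM in siCo. The siYAP/TAZ#2 and siCo means of FDFT1 thus differed by 0.00 ± 0.059 in log2, and its difference between combinations was 0.40 ± 0.059 (adjusted p = 1.35e-04).

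IDI1, which isomerizes isopentenyl diphosphate, was at 66.9, 71.8, 61.0 and 83.1 CPM in siYAP/TAZ#1, at 32.3, 46.4, 42.6 and 48.6 CPM in siYAP/TAZ#2, and at 55.7, 61.5, 55.1 and 71.6 CPM in siCo. Every siYAP/TAZ#2 library was below all others, while siYAP/TAZ#1 and siCo overlapped. IDI1 fell by 0.52 ± 0.12 on the log2 scale with siYAP/TAZ#2 (adjusted p = 0.00282), with 0.21 ± 0.12 for siYAP/TAZ#1 (adjusted p = 0.197), and the combinations differed by 0.73 ± 0.12 (adjusted p = 4.24e-04). Without replicate 1 of siYAP/TAZ#2, its lowest library, that difference was 0.62. On TPM without further scaling, the change of IDI1 with siYAP/TAZ#2 was -0.04 and the difference 0.62, neither called. ACAT2, which makes acetoacetyl-CoA, and FDPS, which makes farnesyl diphosphate, differed between combinations by 0.38 ± 0.079 and 0.36 ± 0.059 (adjusted p = 0.00298 and 3.71e-04). HMGCS1, the first enzyme committed to mevalonate, and PMVK, the kinase after MVK, were called in none of the 3 comparisons. In HMGCS1 the siYAP/TAZ#2 library of replicate 1 was at 103 CPM and the other 3 at 149 to 153 CPM.

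SQLE, which adds oxygen to squalene, and MSMO1 were the sterol enzymes lower with siYAP/TAZ#1. SQLE was at 136, 139, 125 and 141 CPM in siYAP/TAZ#1, at 178, 213, 212 and 205 CPM in siYAP/TAZ#2, and at 258, 272, 245 and 263 CPM in siCo. The 3 groups did not overlap, with siYAP/TAZ#1 lowest. SQLE fell by 0.94 ± 0.065 with siYAP/TAZ#1 (adjusted p = 1.84e-08) and by 0.36 ± 0.065 with siYAP/TAZ#2 (adjusted p = 3.29e-04), where it turned to 0.08 higher on TPM without further scaling. The combinations differed by -0.58 ± 0.065 (adjusted p = 8.21e-06). LSS, the cyclase that follows SQLE, was higher with siYAP/TAZ#1 by 0.34 ± 0.067 and with siYAP/TAZ#2 by 0.18 ± 0.067 (adjusted p = 7.34e-04 and 0.0452). Without replicate 1 of siYAP/TAZ#2, its highest library, the change of LSS with siYAP/TAZ#2 was 0.14 (adjusted p = 0.0506).

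The post-squalene enzymes trim lanosterol to cholesterol. TM7SF2, a C14 sterol reductase, was at 26.8, 26.7, 25.2 and 26.7 CPM in siYAP/TAZ#1, at 24.2, 20.8, 23.1 and 24.1 CPM in siYAP/TAZ#2, and at 14.0, 14.1, 10.9 and 13.2 CPM in siCo. The 3 groups did not overlap, with siCo lowest. TM7SF2 rose by 1.01 ± 0.083 with siYAP/TAZ#1 (adjusted p = 1.14e-07) and by 0.82 ± 0.083 with siYAP/TAZ#2 (adjusted p = 1.01e-06), the farthest of the 18 sterol enzymes with either, and the combinations differed by 0.19 ± 0.080 (adjusted p = 0.134).

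MSMO1, the C4 methyl oxidase, was at 48.8, 48.4, 43.3 and 54.5 CPM in siYAP/TAZ#1, at 45.7, 77.2, 67.7 and 75.4 CPM in siYAP/TAZ#2, and at 66.8, 69.8, 62.3 and 76.9 CPM in siCo. Replicate 1 of siYAP/TAZ#2 lay among the siYAP/TAZ#1 libraries, and the other 3 lay between 67.7 and 77.2 CPM, with 1 of them just above the highest siCo library. MSMO1 fell by 0.50 ± 0.13 with siYAP/TAZ#1 (adjusted p = 0.00573), and the combinations differed by -0.45 ± 0.13 (adjusted p = 0.0249), or by -0.60 without that library. On TPM without further scaling, its change with siYAP/TAZ#1 was -0.08 and the difference -0.42, neither called.

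NSDHL, which acts beside MSMO1 at C4, and DHCR7, which makes cholesterol in the last step of its branch, were higher with siYAP/TAZ#1 by 0.24 ± 0.059 and 0.23 ± 0.062 (adjusted p = 0.00409 and 0.00759). HSD17B7, the keto reductase of the same C4 step, was higher with siYAP/TAZ#2 by 0.34 ± 0.094 (adjusted p = 0.00895), with 0.00 ± 0.095 for siYAP/TAZ#1. EBP, the sterol isomerase, and SC5D, the desaturase, were lower with siYAP/TAZ#2 by -0.18 ± 0.059 and -0.33 ± 0.12 (adjusted p = 0.0258 and 0.0358), and on TPM without further scaling both turned to higher than siCo, by 0.23 and 0.33. SC5D was at 15.7 CPM in replicate 1 of siYAP/TAZ#2 and at 23.1 CPM in the other 3, and without that library its change was -0.20 (adjusted p = 0.0510). CYP51A1, the lanosterol demethylase, was called only between combinations, at 0.33 ± 0.087 (adjusted p = 0.0152), or 0.22 without replicate 1 of siYAP/TAZ#2. By subgroup, 9 of the 18 sterol enzymes were higher and 2 lower with siYAP/TAZ#1, 3 higher and 4 lower with siYAP/TAZ#2, and 9 higher and 3 lower between the combinations, with medians of 0.21, -0.03 and 0.30. The shares over all genes, higher and lower, were 16.4% and 18.5%, 19.0% and 19.2%, and 6.92% and 8.20% in these comparisons.

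Some of these genes share sequence with neighbours or copies. In GENCODE v29, exons of genes on the opposite strand cover 52.3% of the exon bases of ACAT2, and 14.8% to 18.6% of those of HMGCS1, IDI1 and FDPS. CYP51A1 shares 2844 of its 3584 exon bases with a gene on its own strand. Annotated pseudogenes exist for 5 of the 38 genes, 8 of them for FDPS and 2 for HSD17B7. Strandedness is not given in the sources used here, so reads of the opposite-strand pairs cannot be told apart with certainty. For CYP51A1 with its same-strand neighbour, and for pseudogene copies, strandedness would not tell the reads apart either.

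In the SREBP machinery SREBF2 had the clearest split. It lies at chromosome 22, 41833079 to 41907308, plus strand, in GENCODE v29 on GRCh38. SREBF2 was at 304, 329, 293 and 319 CPM in siYAP/TAZ#1, at 170.5, 155, 165 and 163 CPM in siYAP/TAZ#2, and at 266, 260.4, 247 and 247 CPM in siCo. No 2 groups overlapped, with siYAP/TAZ#1 above siCo and siYAP/TAZ#2 below it. The change was 0.29 ± 0.055 with siYAP/TAZ#1 (adjusted p = 6.40e-04) and -0.64 ± 0.055 with siYAP/TAZ#2 (adjusted p = 1.61e-07), and the combinations differed by 0.93 ± 0.055 (adjusted p = 6.47e-09), 1.90-fold. Without replicate 1 of siYAP/TAZ#2 the difference was 0.94. In every alternative fit the difference was positive. On log2(TPM + 1) without further scaling it was least, 0.76 (adjusted p = 0.200 in limma), and SREBF2 stood at 0.67 against siCo with siYAP/TAZ#1 and at -0.09 with siYAP/TAZ#2 (adjusted p = 0.0679 and 0.794).

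INSIG1, an SREBP target that also retains SCAP in the endoplasmic reticulum, fell with both. It was at 169.6, 189, 163 and 174 CPM in siYAP/TAZ#1, at 167, 177, 174 and 168 CPM in siYAP/TAZ#2, and at 252, 271, 238 and 259 CPM in siCo. The treated groups overlapped each other and neither reached siCo. The changes were -0.55 ± 0.059 with siYAP/TAZ#1 (adjusted p = 2.05e-06) and -0.57 ± 0.059 with siYAP/TAZ#2 (adjusted p = 1.14e-06), and the combinations differed by 0.02 ± 0.059 (adjusted p = 0.879). On TPM without further scaling its changes were -0.12 and -0.09, not called. INSIG2, its paralogue, was at 4.79, 4.62, 4.90 and 5.12 CPM in siYAP/TAZ#1, at 2.94, 4.38, 4.14 and 3.29 CPM in siYAP/TAZ#2, and at 3.33, 3.39, 2.74 and 3.87 CPM in siCo. All siYAP/TAZ#1 libraries were above the other 8, and INSIG2 rose by 0.54 ± 0.14 with siYAP/TAZ#1 (adjusted p = 0.00634). On log2(TPM + 1) with TMM factors that change was 0.30, not called.

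SREBF1, which encodes the SREBPs most tied to fatty acid synthesis, was higher with both, by 0.46 ± 0.090 with siYAP/TAZ#1 and 0.33 ± 0.090 with siYAP/TAZ#2 (adjusted p = 7.48e-04 and 0.00801). It ranged from 298 to 345 CPM in siYAP/TAZ#1, from 255 to 359 CPM in siYAP/TAZ#2 and from 216 to 250.2 CPM in siCo. The highest of these values was replicate 1 of siYAP/TAZ#2, and without it the change with siYAP/TAZ#2 was 0.23 and SREBF1 differed between combinations by 0.23 (adjusted p = 0.00776). SCAP averaged 143 ± 7.81, 146 ± 15.8 and 152 ± 8.08 CPM in siYAP/TAZ#1, siYAP/TAZ#2 and siCo and was not called, except as 0.13 lower with siYAP/TAZ#2 without replicate 1 (adjusted p = 0.0499).

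Other genes of the same circuit were read from a list of 25 genes of SREBP processing, sterol-regulated degradation and lipid transcription factors. Of these, 7 were higher and 8 lower with siYAP/TAZ#1, and 6 higher and 6 lower with siYAP/TAZ#2, with medians of -0.06 and -0.08. Over all genes, 16.4% were higher and 18.5% lower with siYAP/TAZ#1, and 19.0% and 19.2% with siYAP/TAZ#2. Both all-gene medians were 0.02. MBTPS2, the site-2 protease that makes the final cut releasing SREBPs, was singled out after its values were seen. It was at 67.3, 66.4, 66.4 and 75.3 CPM in siYAP/TAZ#1, at 21.9, 26.3, 26.3 and 26.7 CPM in siYAP/TAZ#2, and at 78.9, 78.0, 78.7 and 86.0 CPM in siCo. All siYAP/TAZ#2 libraries were far below the rest. MBTPS2 fell by 1.67 ± 0.071 with siYAP/TAZ#2 (adjusted p = 8.20e-11) and by 0.22 ± 0.069 with siYAP/TAZ#1 (adjusted p = 0.0191), the change with siYAP/TAZ#1 turning to 0.15 higher on TPM without further scaling, and the combinations differed by 1.45 ± 0.071 (adjusted p = 8.63e-10). On that scale its change with siYAP/TAZ#2 was -0.98 and its difference 1.14, both still called. MBTPS2 had the largest difference between combinations of the 25 genes. Of these, 6 were higher with siYAP/TAZ#1 than with siYAP/TAZ#2 and 1 was lower, beside 6.92% and 8.20% of all genes. SREBF2 and MBTPS2 were both lower with siYAP/TAZ#2 than with siYAP/TAZ#1.

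By the rule for naming genes, the list also gave MLXIPL, the carbohydrate-responsive factor ChREBP, at 11.2 ± 1.07 CPM in siYAP/TAZ#1, 8.07 ± 1.80 CPM in siYAP/TAZ#2 and 2.996 ± 0.302 CPM in siCo. It rose by 1.90 ± 0.14 and 1.43 ± 0.15 with siYAP/TAZ#1 and siYAP/TAZ#2 (adjusted p = 4.46e-08 and 1.01e-06). NR1H3, which encodes LXR-alpha, averaged 21.3 ± 1.72, 27.2 ± 3.43 and 14.9 ± 0.679 CPM and rose by 0.51 ± 0.089 and 0.87 ± 0.089 (adjusted p = 2.73e-04 and 1.12e-06). CREBRF, a regulator of CREB3 signalling, rose by 1.11 and 0.76, the change with siYAP/TAZ#2 being 0.69 and not called on TPM without further scaling. MED15, a Mediator subunit that SREBPs bind, fell by 0.50 and 0.52, and on that scale stood at -0.09 and -0.05, neither called.

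Among the 5 genes of uptake, transport and efflux, ABCA1, which loads cholesterol onto apolipoproteins outside the cell, was at 14.5, 12.9, 13.6 and 12.96 CPM in siYAP/TAZ#1, at 17.0, 21.3, 19.9 and 18.4 CPM in siYAP/TAZ#2, and at 20.3, 19.2, 21.9 and 21.1 CPM in siCo. Every siYAP/TAZ#1 library was below the other 8, and siYAP/TAZ#2 and siCo overlapped. ABCA1 fell by 0.61 ± 0.080 with siYAP/TAZ#1 (adjusted p = 1.67e-05), with -0.11 ± 0.079 for siYAP/TAZ#2 (adjusted p = 0.327), and the combinations differed by -0.51 ± 0.080 (adjusted p = 2.63e-04). In TPM it averaged 1.15 ± 0.480, 1.69 ± 0.543 and 1.20 ± 0.210 in siYAP/TAZ#1, siYAP/TAZ#2 and siCo. On log2(TPM + 1) with TMM factors, the change of ABCA1 with siYAP/TAZ#1 was -0.26, not called.

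The other LXR-driven genes did not follow ABCA1. ABCG1, an exporter to lipoprotein particles, was at 1.27, 0.742, 0.890 and 0.991 CPM in siYAP/TAZ#1, at 1.30, 1.68, 1.65 and 0.944 CPM in siYAP/TAZ#2, and at 0.557, 0.668, 0.767 and 0.3999 CPM in siCo. All siYAP/TAZ#2 libraries were above all siCo libraries, on 14.1 to 61.4 estimated counts per library. ABCG1 rose by 1.23 ± 0.27 with siYAP/TAZ#2 (adjusted p = 0.00143), with 0.72 ± 0.27 for siYAP/TAZ#1 (adjusted p = 0.0509), and the difference of -0.52 ± 0.25 between them was not called (adjusted p = 0.204). MYLIP, a ubiquitin ligase that limits cholesterol uptake, was at 6.49, 6.93, 6.52 and 5.93 CPM in siYAP/TAZ#1, at 6.47, 6.02, 5.40 and 5.57 CPM in siYAP/TAZ#2, and at 4.37, 4.77, 4.84 and 4.21 CPM in siCo. All 8 treated libraries were above siCo, with rises of 0.51 ± 0.098 and 0.37 ± 0.099 (adjusted p = 6.47e-04 and 0.00736).

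NPC1, which exports cholesterol from lysosomes, fell by 0.19 ± 0.071 with siYAP/TAZ#1 and by 0.36 ± 0.071 with siYAP/TAZ#2 (adjusted p = 0.0474 and 7.17e-04), and turned to 0.18 and 0.15 higher on TPM without further scaling. STARD4, a carrier of cholesterol within the cell, was called in no comparison. It ranged from 18.1 to 21.9 CPM in siYAP/TAZ#1, from 14.3 to 23.1 CPM in siYAP/TAZ#2 and from 19.2 to 26.3 CPM in siCo.

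A list of other sterol, isoprenoid and cholesterol transport genes held 37 genes, of which 33 passed the filter on low counts. Of these, 10 were higher and 3 lower with siYAP/TAZ#1, and 6 higher and 9 lower with siYAP/TAZ#2, with medians of 0.08 and 0.01. Beside this, 16.4% of all genes were higher and 18.5% lower with siYAP/TAZ#1, and 19.0% and 19.2% with siYAP/TAZ#2. Both all-gene medians were 0.02. APOE, an acceptor of exported cholesterol and itself LXR-driven, averaged 13.9 ± 1.46 CPM in siYAP/TAZ#1, 24.7 ± 8.57 CPM in siYAP/TAZ#2 and 8.59 ± 1.24 CPM in siCo. It rose by 0.70 ± 0.19 and 1.53 ± 0.18 with siYAP/TAZ#1 and siYAP/TAZ#2 (adjusted p = 0.00800 and 6.67e-06), a difference of -0.83 ± 0.18, or -0.58 without replicate 1 of siYAP/TAZ#2, and -0.80 and not called on TPM without further scaling. OSBPL5, an oxysterol-binding transfer protein, rose by 0.76 and 0.70, and POR, the electron donor of CYP51A1 and SQLE, by 0.44 and 0.40. PDSS1, which starts the tail of ubiquinone from farnesyl diphosphate, fell by 0.61 and 0.55, and on TPM without further scaling stood at -0.14 and -0.05, neither called.

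LBR, the nuclear envelope protein with the same C14 reductase activity as TM7SF2, was singled out after its values were seen. It was at 116, 116, 115 and 132 CPM in siYAP/TAZ#1, at 44.5, 60.5, 57.5 and 57.5 CPM in siYAP/TAZ#2, and at 113, 105, 109.6 and 121 CPM in siCo. The siYAP/TAZ#2 libraries were far below the rest and the other groups overlapped. LBR fell by 1.03 ± 0.085 with siYAP/TAZ#2 (adjusted p = 1.15e-07), with 0.09 ± 0.084 for siYAP/TAZ#1 (adjusted p = 0.458), and the combinations differed by 1.12 ± 0.085 (adjusted p = 1.07e-07). On TPM without further scaling, its change with siYAP/TAZ#2 was -0.38 and the difference 0.85, neither called. So TM7SF2 was higher with both combinations, and LBR was lower with siYAP/TAZ#2, each in the TMM-scaled counts. LBR had the largest difference between combinations of the 33 genes tested from its list. Of these, 10 were higher with siYAP/TAZ#1 than with siYAP/TAZ#2 and 2 were lower, beside 6.92% and 8.20% of all genes.

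Of the 10 fatty acid genes, 5 were higher and 2 lower with siYAP/TAZ#1, and 5 higher and 3 lower with siYAP/TAZ#2, with medians of 0.17 and 0.14. Among all genes, 16.4% were higher and 18.5% lower with siYAP/TAZ#1, and 19.0% and 19.2% with siYAP/TAZ#2. Between the combinations only ACSS2 and ELOVL1 were called, both higher with siYAP/TAZ#1, as were 6.92% of all genes. ACSS2, which makes acetyl-CoA from acetate, was at 47.3, 51.2, 47.9 and 52.4 CPM in siYAP/TAZ#1, at 40.2, 44.1, 42.2 and 42.6 CPM in siYAP/TAZ#2, and at 27.4, 30.5, 27.3 and 27.0 CPM in siCo. The 3 groups did not overlap. ACSS2 rose by 0.83 ± 0.061 with siYAP/TAZ#1 (adjusted p = 3.92e-08) and by 0.59 ± 0.062 with siYAP/TAZ#2 (adjusted p = 1.30e-06), and kept both calls in every alternative fit. ACLY, which makes acetyl-CoA from citrate, fell by 0.14 ± 0.050 and 0.18 ± 0.050 (adjusted p = 0.0385 and 0.00934), but turned to 0.03 and 0.01 higher with library size alone and to 0.25 and 0.30 higher on TPM without further scaling.

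ACACA and FASN, the carboxylase and synthase that build palmitate, were called with neither combination when all libraries were used. FASN was at 2773 CPM in replicate 1 of siYAP/TAZ#2 and at 2086 to 2182 CPM in the other 3, against 2570 to 2982 CPM in siYAP/TAZ#1 and 2389 to 2654 CPM in siCo. The other 3 siYAP/TAZ#2 libraries were thus below every library of the other groups. Without replicate 1, FASN was lower with siYAP/TAZ#2 by 0.25 (adjusted p = 9.84e-04) and ACACA higher by 0.14 (adjusted p = 0.0150), beside -0.15 and 0.06 with all libraries.

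The desaturase genes rose, and the elongases split. SCD, which makes monounsaturated fat, and the polyunsaturated desaturases FADS1 and FADS2 were higher by 0.26, 0.28 and 0.30 with siYAP/TAZ#1 and by 0.23, 0.21 and 0.21 with siYAP/TAZ#2, each called in both. FADS1 and FADS2 stand on opposite strands of chromosome 11 and share 490 exon bases. ELOVL6, which extends palmitate, was higher by 0.48 ± 0.10 and 0.28 ± 0.10 (adjusted p = 0.00131 and 0.0348), or by 0.40 with siYAP/TAZ#2 without replicate 1. On log2(TPM + 1) with TMM factors, the changes of ELOVL6 were 0.12 and 0.01, not called.

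ELOVL1, which makes very long saturated chains, was at 99.3, 98.3, 93.5 and 105 CPM in siYAP/TAZ#1, at 80.7, 87.0, 91.6 and 86.1 CPM in siYAP/TAZ#2, and at 138, 138, 133 and 139.6 CPM in siCo. No 2 groups overlapped, and ELOVL1 fell by 0.47 ± 0.055 with siYAP/TAZ#1 (adjusted p = 5.70e-06) and by 0.67 ± 0.055 with siYAP/TAZ#2 (adjusted p = 1.06e-07). On TPM without further scaling, ELOVL1 stood at -0.10 and -0.24, neither called. ELOVL5, which extends polyunsaturated chains, fell by 0.34 ± 0.085 with siYAP/TAZ#2 (adjusted p = 0.00423) and turned to 0.12 higher on TPM without further scaling, with -0.16 ± 0.085 for siYAP/TAZ#1 (adjusted p = 0.165).

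**Figure D4:**
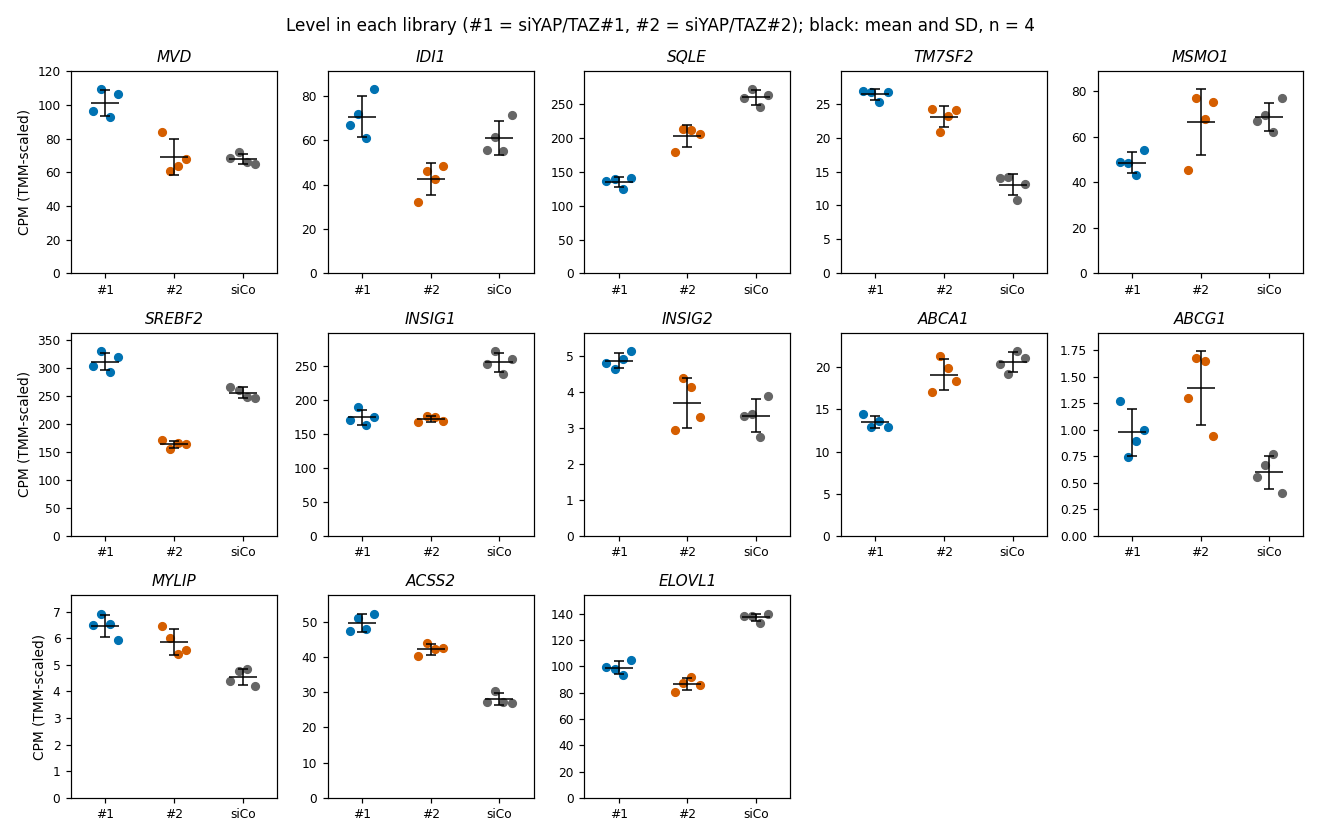
Level in each library (CPM after TMM scaling, linear axes from 0) of the 13 genes called in at least 1 comparison with a log2 change of 0.5 or more, with siYAP/TAZ#1, siYAP/TAZ#2 and siCo from left to right and black bars for the mean and SD of 4 libraries. The 3 groups are apart for SQLE, TM7SF2, SREBF2, ACSS2 and ELOVL1, and 1 low siYAP/TAZ#2 point, replicate 1, is seen for MSMO1 and IDI1.

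Of 37 other fatty acid and glycerolipid genes tested, from a list of 40, 12 were higher and 9 lower with siYAP/TAZ#1, and 11 higher and 7 lower with siYAP/TAZ#2, with medians of 0.06 and 0.04. The shares over all genes were 16.4% higher and 18.5% lower with siYAP/TAZ#1, and 19.0% and 19.2% with siYAP/TAZ#2. Both all-gene medians were 0.02. LPIN2, a phosphatidate phosphatase, rose by 0.58 ± 0.060 and 0.60 ± 0.060 with siYAP/TAZ#1 and siYAP/TAZ#2 (adjusted p = 1.37e-06 and 7.86e-07). LPCAT3, an LXR-driven enzyme that puts polyunsaturated chains into phospholipids, rose by 0.47 and 0.70, the change with siYAP/TAZ#1 being 0.74 and not called on TPM without further scaling. HACD1, a dehydratase of chain elongation, fell by 0.47 and 0.81, and on that scale stood at -0.05 and -0.22, neither called. MCAT, of mitochondrial fatty acid synthesis, fell by 0.39 with both, and AGPAT3, an acyltransferase, by 0.41 and 0.28. With siYAP/TAZ#2 both MCAT and AGPAT3 turned to higher than siCo, by 0.08 and 0.22, on TPM without further scaling. PRKAA2, a catalytic subunit of the kinase AMPK, which restrains lipid synthesis, was singled out after its values were seen. It averaged 31.7 ± 1.73 CPM in siYAP/TAZ#1, 13.3 ± 2.50 CPM in siYAP/TAZ#2 and 21.2 ± 2.34 CPM in siCo, so that it was called higher with siYAP/TAZ#1 (0.58 ± 0.11, adjusted p = 7.01e-04) and lower with siYAP/TAZ#2 (-0.67 ± 0.12, adjusted p = 2.45e-04). On TPM without further scaling, PRKAA2 stood at 0.61 and -0.11, neither called. Its difference between combinations in the TMM-scaled counts was the largest of the 37 genes. Of these, 5 were higher with siYAP/TAZ#1 than with siYAP/TAZ#2 and 8 were lower, beside 6.92% and 8.20% of all genes.

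Levels per transcript length place these genes on a wide range. In siCo the mean TPM of the 38 ran from 0.181 to 357, with a median of 33.1. FASN at 357 ± 46.5, ACLY at 332 ± 52.7, FADS2 at 261 ± 55.8 and SCD at 197 ± 43.9 TPM were the top 4, and each differed from the next by less than the sum of their SDs. Among sterol enzymes FDFT1 and EBP led with 82.5 ± 16.3 and 80.5 ± 12.9 TPM and TM7SF2 was lowest at 6.22 ± 1.63 TPM. MYLIP, ABCA1 and INSIG2 were between 0.910 and 1.27 TPM, and ABCG1 was the lowest of all. In bulk RNA, fewer cells expressing a gene and less of its RNA per cell cannot be told apart.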

How the data were processed

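RNA was sequenced from 12 A549 libraries, 3 groups of 4 by sample title, described in the series as biological replicates. The 38 genes and the further lists were chosen with earlier results of these data known. The authors deposited estimated counts per gene, unscaled, and TPM values per gene. Tools named in the submitters' processing notes, with no role or order, are kallisto 0.4.6 and Trim Galore 0.6.4, and the build is GRCh38.p13. How transcripts were summed to genes, and strandedness, are not given in the sources used here. Per the labels' protocols, only RNA with an integrity number above a minimum was sequenced, on the BGISEQ-500 platform. Of 60617 identifiers, 60357 were matched to a symbol and 58444 to GENCODE v29.

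Estimated counts were rounded. The quasi-likelihood F test of edgeR 4.0.16 (R 4.3.3) was run over all 12 libraries with group as the only term, after filterByExpr and TMM scaling, with Benjamini-Hochberg adjustment over the 21581 genes kept. Genes with an adjusted p under 0.05 were called, whatever the fold. Changes are log2 values ± standard error, levels CPM after TMM scaling, mean ± SD over 4 libraries. The common biological coefficient of variation was 0.105, and TMM factors were 1.00 to 1.07 in siYAP/TAZ#1, 0.967 to 1.10 in siYAP/TAZ#2 and 0.887 to 0.944 in siCo. p-values measure the spread between these libraries.

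Genes were named by rule: every member, with values by library for those called in at least 1 comparison at a log2 change of 0.5 or more, and from each further list the 5 lowest by the larger of the adjusted p values against siCo. Some genes that the rule gave are not reported here. Alternatives were DESeq2 1.42.0, its size factors in edgeR, library size alone, no filter, the 2 groups compared alone, the replicate number as a block, each library left out, and limma 3.58.1 on log2(TPM + 1) and log2(TPM + 0.1) for genes with a mean of at least 0.5 TPM. A TPM fit with TMM factors was added after seeing the data. The steps were tested on simulated data. Promoters were matched by symbol to a RefSeq table, which lists 33 of the 38 genes. ABCG1, ACAT2, FASN, FDFT1 and SQLE were not analysed there.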

Additional observations from a re-analysis of the deposited data

Results flagged for a closer look

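In 12 of 120 groups of 4 libraries, taken over the 38 genes and both targets, 1 library stood far from the other 3, where chance gives about 1 in 20 such groups. In 7 of the 12 that library was replicate 1 of siYAP/TAZ#2. It was low for HMGCS1 at 103 CPM (others 149 to 153 CPM), for CYP51A1 at 109.8 CPM (147 to 154 CPM), for SC5D at 15.7 CPM (all others 23.1 CPM) and for ACACA at 219 CPM (270.1 to 280.2 CPM). It was high for LSS at 247 CPM (218 to 222 CPM), for SCAP at 169.7 CPM (136 to 141 CPM) and for FASN at 2773 CPM (2086 to 2182 CPM).

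In siYAP/TAZ#1, 4 genes had such a library. TM7SF2 was low in replicate 3 at 25.2 CPM (26.7 to 26.8 CPM), NSDHL high in replicate 2 at 52.8 CPM (49.9 to 50.4 CPM), FASN high in replicate 2 at 2982 CPM (2570 to 2600 CPM), and ELOVL6 high in replicate 4 at 58.0 CPM (52.0 to 52.9 CPM). In siCo, ACSS2 was high in replicate 2 at 30.5 CPM (27.0 to 27.4 CPM).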

How the results depend on the processing

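Scaling decided most. With library size alone, 24 members were higher and 4 lower with siYAP/TAZ#1, 15 and 3 with siYAP/TAZ#2, and 10 and 2 between combinations. On log2(TPM + 1), and equally on log2(TPM + 0.1), there were 7 and 0, 5 and 0, and 0 and 0, and on TPM with TMM factors, added after seeing the data, 16 and 4, 8 and 8, and 10 and 2. Over all genes, library size alone called 1270 higher and 1644 lower of 21581 between combinations. TPM with TMM factors called 2240 and 2934, 2671 and 3221, and 884 and 826 of 18268 genes, in the same order of comparisons. Changes that turned from lower to higher, in the order log2(TPM + 1), log2(TPM + 0.1) and, where given, library size alone, were for siYAP/TAZ#1 NPC1 (0.178, 0.182), ACLY (0.253, 0.253, 0.0346) and MBTPS2 (0.154, 0.165). For siYAP/TAZ#2 they were SQLE (0.0789, 0.0796), EBP (0.226, 0.228, 0.0121), SC5D (0.332, 0.366), NPC1 (0.151, 0.154), ACLY (0.300, 0.301, 0.0083), ELOVL5 (0.117, 0.119), MCAT (0.0816, 0.0891) and AGPAT3 (0.215, 0.223). WWTR1 differed between the combinations by 0.364 on TPM with TMM factors (adjusted p = 0.0261). The cause was not tested. DESeq2 gave 18 and 7, 10 and 11, and 16 and 4, and its size factors in edgeR 19 and 7, 10 and 11, and 12 and 4.

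With 1 library left out in turn, siYAP/TAZ#1 had 18 to 19 higher and 5 to 7 lower, siYAP/TAZ#2 had 9 to 11 and 8 to 11, and the combinations differed with 9 to 15 and 2 to 5. Of the calls, 23 of 25, 17 of 21 and 11 of 16 held in every such fit. Those lost were ACLY and NPC1 with siYAP/TAZ#1, EBP, ELOVL6, LSS and SC5D with siYAP/TAZ#2, and ACSS2, CYP51A1, ELOVL1, HSD17B7 and MSMO1 between combinations. YAP1 changed by -2.74 to -2.66 and -2.84 to -2.78 in these fits, and WWTR1 by -2.90 to -2.85 and -2.94 to -2.85. Under every alternative that gave a value 7 of 25, 5 of 21 (ABCG1 among them, absent from the TPM fits) and 0 of 16 calls held, and 20, 15 and 10 when library size alone and TPM without further scaling were set aside. The calls then lost were ABCA1, ACLY, ELOVL6, INSIG2 and NPC1 with siYAP/TAZ#1, and ACLY, EBP, ELOVL6, LSS, MYLIP and SC5D with siYAP/TAZ#2.

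Same-numbered libraries deviated together for replicate 4, with correlations of 0.545, 0.545 and 0.623, but not throughout. The 12 pairs with the same number ran from -0.51 to 0.62, and 5 were over 0.1. Pairs from different groups with different numbers ran from -0.65 to 0.67. The highest was replicate 1 of siYAP/TAZ#2 with replicate 2 of siYAP/TAZ#1, so correlations as high as those of replicate 4 also occurred without a shared number. For 4 of 12 libraries, both libraries with the same number were the closest ones in the other groups. The numbers were treated as names, and with the replicate block there were 19 and 5, 11 and 10, and 12 and 4 calls. Depth limits ABCG1, INSIG2, MYLIP and PMVK most, the members with the fewest counts.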
